A study of Mus musculus with 6 samples.

Results

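The replication-dependent clustered histone genes of the mouse were examined in the hypothalamus of diet-induced obese mice treated with GSK-J4. Members were the genes whose array name starts with Hist1h, Hist2h, Hist3h or Hist4h, a rule that uses no measured value, although it was set with earlier results of these data known. They came to 56 of 37074 gene names on the array and to 68 of 56605 probes, in the histone classes H1 (6 genes, 8 probes), H2A (18 genes, 21 probes), H2B (14 genes, 18 probes), H3 (9 genes, 10 probes) and H4 (9 genes, 11 probes). By number in the name, 42 genes belonged to Hist1, 10 to Hist2, 3 to Hist3 and 1 to Hist4, and their probes lay on chromosomes 13, 3, 11 and 6. All 56 names were found among the symbols or synonyms of RefSeq (GRCm38.p6), which lists Hist1h2al and Hist3h2bb-ps as transcribed pseudogenes and the rest as protein coding.

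The series holds 6 one-colour Agilent expression arrays of total RNA, each from a different mouse. All mice were male C57BL/6J on a diet with 60% of its energy as fat, begun at 6 weeks of age and kept for 16 weeks, under a 12 h light and dark cycle. The 3 GSK-J4 mice received 30 mg per kg of the compound by injection into the abdominal cavity each day at ZT 2 h, and the 3 vehicle mice received 0 mg per kg. The hypothalamus was taken at ZT 6 h, 4 days after exposure by the labels. The daily injections and their hour are from the study's methods, which describe a longer course of the compound, and which length these mice received cannot be told from the sources. GSK-J4 is a cell-permeable inhibitor of the histone demethylases Kdm6a and Kdm6b, which take methyl groups off lysine 27 of histone H3. The comparison asks which transcripts differ in this region once these enzymes are inhibited.

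Replication-dependent histone genes supply the H2A, H2B, H3 and H4 proteins of the nucleosome core and the H1 linker proteins that close it. Dividing cells transcribe them mainly in S phase, from clusters that hold many near-identical copies. Their mRNAs are the only ones of animal cells that usually end in a conserved stem-loop instead of a poly(A) tail. SLBP binds this stem-loop, and the U7 particle guides the cut just after it. In tissues with few dividing cells, some of these genes also yield polyadenylated mRNAs that read past the stem-loop. The labels name a linear amplification kit for the dye labelling, and such kits start cDNA synthesis at poly(A) tails. Which form of a histone mRNA was labelled on these arrays was not tested.

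The stem-loop is shown first because it tells where on the mRNA a probe sits. A 16-base stem-loop, with a stem of 6 bases starting with GG around a loop of 4 starting with TT, was found whole in 5 of the 68 member probes and in 8 of all 56605 probes. The 30 bases of each probe around it are printed as DNA in the sense of the mRNA, with the stem-loop in capitals.
Hist1h2bf: taacccaaaGGCTCTTTTCAGAGCCaccta
Hist2h2bb: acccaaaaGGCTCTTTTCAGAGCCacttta
Hist1h3a: aattaaccaaaGGCTCTTTTCAGAGCCaca
Hist1h3i: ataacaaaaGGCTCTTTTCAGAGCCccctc
Hist1h4m: caactaaaGGCCCTTTTCAGGGCCatccaa
The loop was the same in all 5, the stem was shared by 4, and Hist1h4m had a stem of its own. The Hist1h3g probe held the stem of those 4 around a loop of 4 that starts with TC, and so was not counted. By exact match to these stem-loops, another 4 probes ended inside one, and 1 probe (Hist1h2ae) began inside it and ran on downstream. A poly(A) signal, AATAAA or ATTAAA, was in 5 of the member probes (7.35%) and in 13.4% of all probes.

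The H2A genes show how alike the copies are, which limits what a probe can tell apart. The probes below, placed by the files on chromosome 13 or 3 of mm9, end at the stop codon of their genes. Capitals mark the bases that differ from the Hist1h2af probe where both overlap without a gap.
Hist1h2af: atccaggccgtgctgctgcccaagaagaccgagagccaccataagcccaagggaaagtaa
Hist1h2ak: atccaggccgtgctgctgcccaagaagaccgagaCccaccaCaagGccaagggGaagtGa
Hist1h2an: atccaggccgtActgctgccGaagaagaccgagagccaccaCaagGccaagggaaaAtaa
Hist1h2ah: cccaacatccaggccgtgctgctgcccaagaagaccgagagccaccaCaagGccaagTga
Hist2h2aa2: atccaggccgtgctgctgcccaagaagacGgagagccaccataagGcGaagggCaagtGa
Hist1h2ak, Hist1h2an and Hist2h2aa2 each differed from Hist1h2af at 5 of 60 bases, and Hist1h2ah differed at 3 of the 54 it overlaps. Of the 68 member probes, 20 shared a run of at least 20 bases with a probe of another member, and the longest such run was 45 bases, between Hist1h2aa and Hist2h2ac. The files list transcripts of more than 1 RefSeq gene for 18 probes. Probes with shared runs can bind each other's transcripts and are not independent of each other. The files also place the Hist1h2an probe (chr13:21902669-21902728) and the Hist1h2ao probe (chr13:21902695-21902754) over each other, and spread the Hist1h2ag probe over far more than its length, so its place is not given.

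Signal was measured well above background for most members. All 6 arrays gave a signal well above background for 49 of the 68 probes, 1 to 5 arrays did so for 9, and no array did for 10. Per array, 51, 53 and 55 member probes were detected with vehicle and 53, 54 and 55 with GSK-J4, so the ranges overlapped. Over all probes of the array, detection was lower with GSK-J4, at 62.8 to 63.6% with vehicle and 57.7 to 58.7% with GSK-J4. Before quantile normalization, the 75th percentile of spot intensity was also lower, at 1109 to 1294 with vehicle and 588 to 674 with GSK-J4. The part of this in the member differences was not tested. A test was made for the 51 member probes, of 44 genes, for which 1 group or both passed that limit on each of its 3 arrays, among 34443 such probes in all. The other 17 probes have no test. The median over tested members was 10.4 on each vehicle array and 10.4 to 10.6 on the GSK-J4 arrays, on the log2 scale of the deposited table, against 8.42 for all tested probes.

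**Figure D1:**
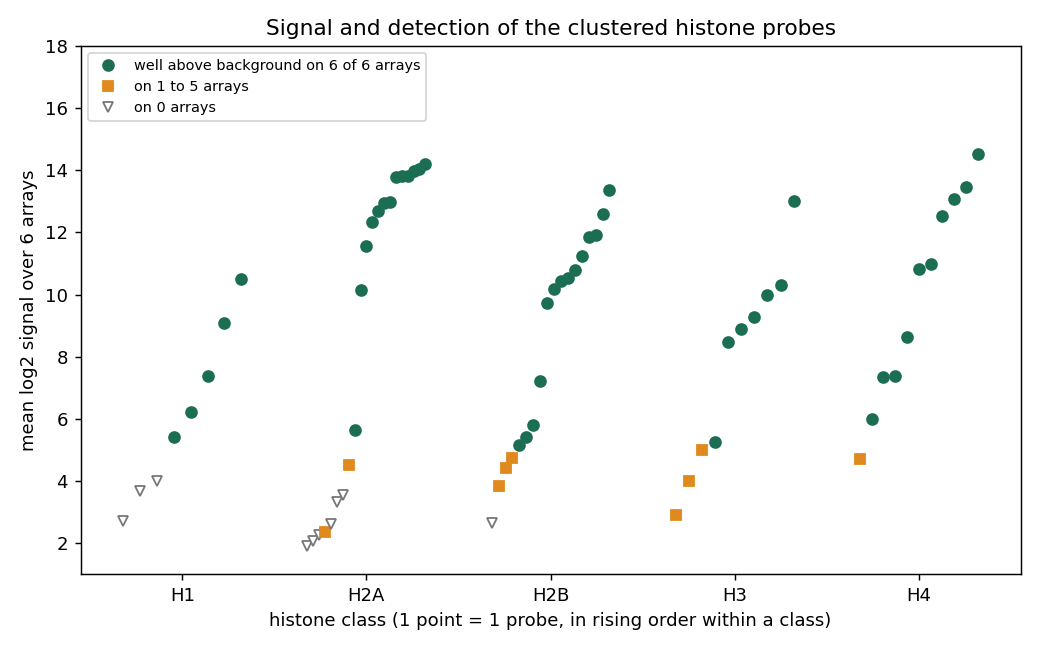
Mean log2 signal over the 6 arrays (vertical axis) of each of the 68 clustered histone probes, by class, with the marker giving on how many of the 6 arrays the probe was well above background. The 49 probes detected on all 6 arrays lie above those detected on none, and levels of different probes are not comparable as amounts of RNA.

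Detection varied between probes of the same gene name. The Hist2h2ac probe at the end of the coding region was detected on 6 arrays, and a probe 86 bases further on was detected on 0. The former shares 45 bases with the Hist1h2aa probe, so its signal cannot be assigned to Hist2h2ac alone. Hist1h1d was detected on 6 arrays with a coding probe and on 0 with a probe 2335 bases downstream, and Hist2h2bb on 6 arrays at the stem-loop and on 4 with a probe 8698 bases downstream that carries AATAAA. In contrast, both probes of Hist1h1c, Hist3h2a and Hist3h2ba were detected on each of the 6 arrays, the second lying 688, 567 and 160 bases downstream of the first. The Hist3h2ba and Hist2h2be probes that carry AATAAA were both detected on 6 arrays.

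Members known from the male germ line were read by detection. Hist1h1t, the testis linker histone, was well above background on 0 of 6 arrays. The probes of Hist1h2aa and Hist1h2ba, the testis forms of H2A and H2B, were so on 6 of 6. The Hist1h2aa probe shares 45 bases with Hist2h2ac, so its signal cannot be assigned to Hist1h2aa either. The longest run of the Hist1h2ba probe shared with another member was 17 bases, and its log2 signal was 11.49, 11.44 and 10.75 with vehicle and 11.19, 11.43 and 11.14 with GSK-J4. That run is shared with a Hist1h2bb probe for which the files list transcripts of 4 RefSeq genes. Exact runs miss stretches that differ at a few bases, as these probes do beyond the run. The signal therefore cannot be assigned to Hist1h2ba alone.

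GSK-J4 samples were higher than vehicle samples for many members, most of all in H2A. At an adjusted p of at most 0.05 (limma, Benjamini-Hochberg over all tested probes), 17 of 51 member probes (33.3%) were higher and 1 was lower, while 8.39% of all tested probes were higher and 8.42% lower. With the test limited to probes detected on all 6 arrays, it was 18 higher and 1 lower of 49 members. Of all 30940 such probes, 3363 were higher and 2801 lower. The median log2 difference was 0.20 over members and 0.02 over all tested probes, and 37 of 51 members had a positive difference. By the thresholds of the methods (unadjusted p up to 0.05, fold no smaller than 1.5), 11 members were higher and 1 lower. Of all probes, 4.79% were higher and 7.86% lower by them. The 11 include Hist1h4m, detected on 2 vehicle and 3 GSK-J4 arrays, which entered the test only through the group where it was high. Among probes detected on all 6 arrays, 10 members were higher and 1 lower, beside 1549 and 1893 of 30940 probes. The 3 GSK-J4 values lay above all 3 vehicle values for 25 of 51 members and below them for 3. Of all probes, 24.5% and 21.2% did so. Hist1h4m is also among the 25 and among the 37 positive differences. With 3 arrays in each group, an exact permutation test has 0.1 as its smallest p. Since the tissue was analysed whole, fewer cells of a type and less RNA per cell cannot be told apart. All vehicle arrays were on 1 slide and scan and all GSK-J4 arrays on another, so slide and treatment cannot be told apart either.

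Classes differed in their counts. In H2A, 8 of 13 tested probes were higher (median difference 0.49). In H1 there were 3 of 5 (0.45) and in H4 4 of 11 (0.36, Hist1h4m included), with 1 lower. In H2B 2 of 14 were higher (0.07) and in H3 0 of 8 (0.04), where 2 H3 probes had groups that did not overlap. By cluster, 12 of 36 probes were higher in Hist1, 4 of 10 in Hist2, 0 of 4 in Hist3 and the only probe in Hist4. These are counts, and no test compares the classes.

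**Figure D2:**
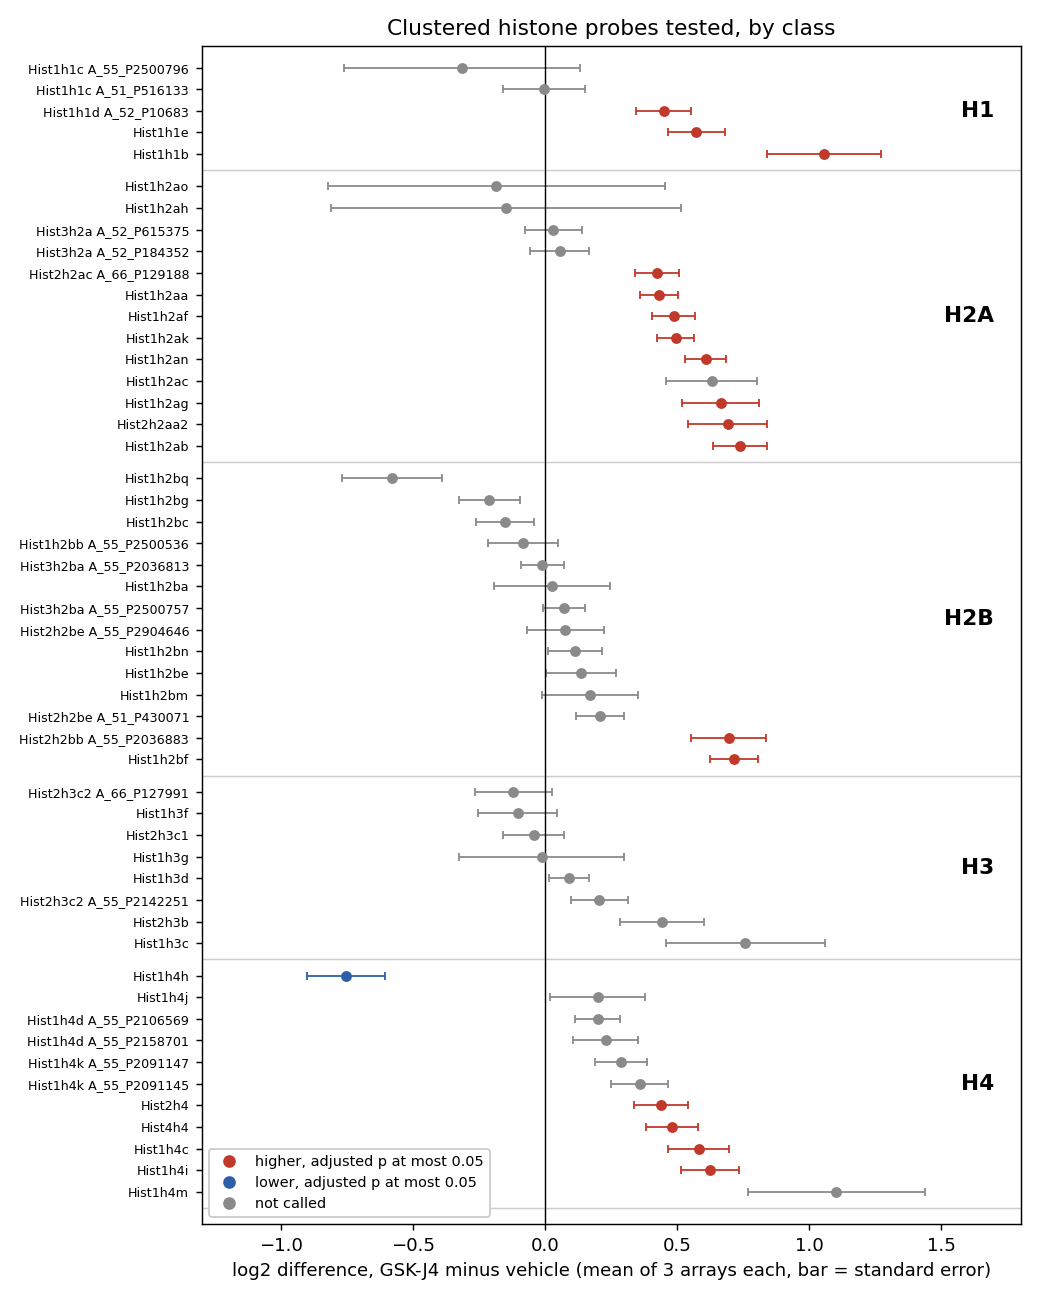
Log2 difference (GSK-J4 minus vehicle, horizontal axis, with standard error; 3 arrays in each group) of the 51 tested clustered histone probes, by class, coloured by the limma call. Most H2A and H4 probes lie right of 0, most H2B and H3 probes lie near it, and Hist1h4h is the only probe called lower.

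The share of probes called depended on the base composition of the probe, and the members are rich in G and C. Their median GC content was 51.7%, against 43.3% over all tested probes. Among tested probes that are no members, 2.80% were higher at a GC content up to 40%, 9.04% over 40 to 50%, 20.5% over 50 to 55%, 20.6% over 55 to 60% and 32.9% above that. In the same bands, members were higher in 1 of 10, 4 of 14, 4 of 10, 7 of 12 and 1 of 5. When the GC trend was removed within each array, 4 of 51 members were higher (the probes named Hist1h2bf, Hist1h2an, Hist1h2ab and Hist1h1e) and Hist1h4h was lower. Over all 34443 tested probes, 1552 were then higher and 2048 lower. The median difference was 0.14 over members and 0.01 over all tested probes. Leaving out an array also moved the count, to 7, 11 and 12 higher without GSK-J4 replicate 1, 2 or 3. Over all 34443 tested probes, 973, 2075 and 1537 were higher in these fits. Without any of the vehicle replicates the member count went to 0, where over all probes 1 to 2 were higher.

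**Figure D3:**
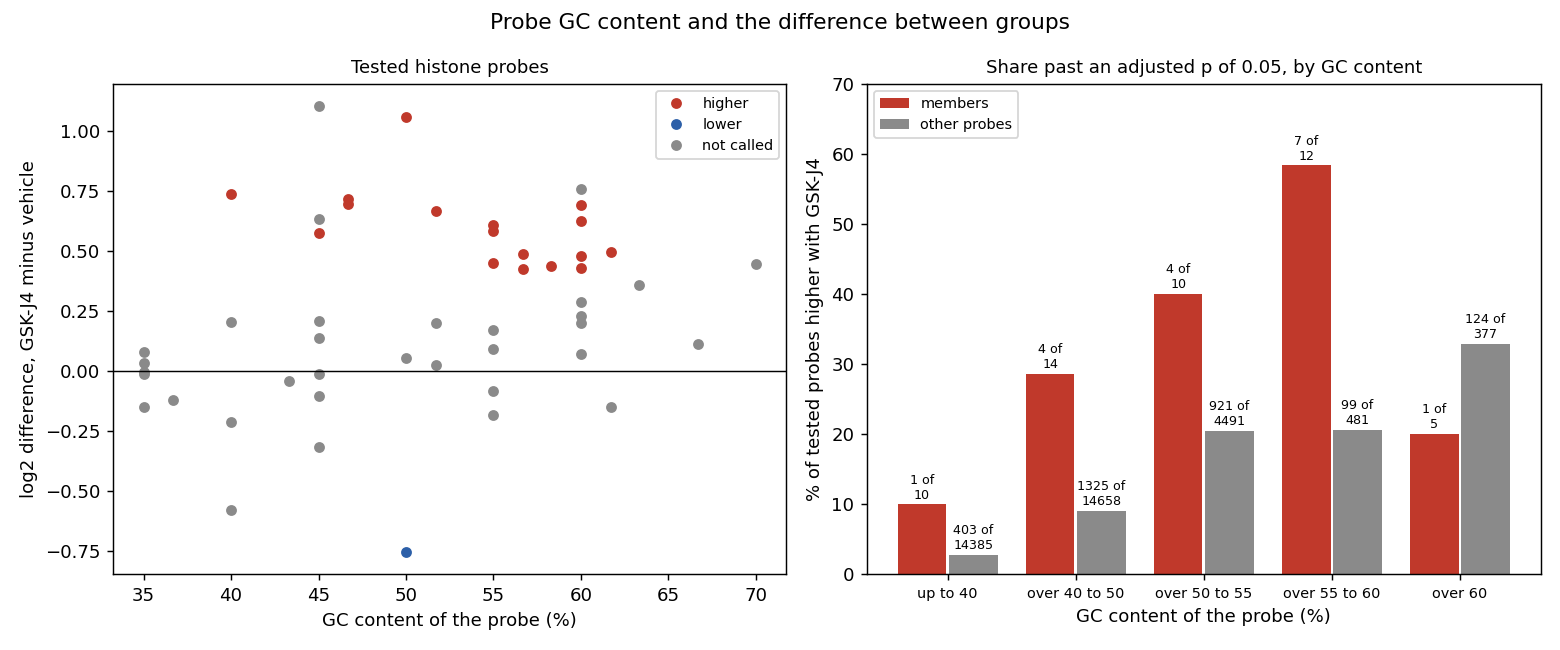
Left, log2 difference (GSK-J4 minus vehicle) against the GC content of each tested histone probe. Right, percent of tested probes higher at an adjusted p of at most 0.05 by GC band for members and for other probes, with the counts above the bars, which rise with GC content among the other probes from 2.80% to 32.9%.

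H2A, which with H2B flanks the H3 and H4 core of the nucleosome, had the most probes called. Hist1h2ab, whose probe runs into the first 11 bases of the stem-loop (chr13:23843392-23843451, mm9), read 9.83, 9.80 and 9.74 with vehicle and 10.71, 10.40 and 10.47 with GSK-J4 (log2). Every GSK-J4 array was above every vehicle array, and the difference was 0.74 ± 0.10 (standard error), a fold of 1.67, at an adjusted p of 0.0174. It kept its call with the GC trend removed (0.78, adjusted p 0.0222).

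Several probes at the end of the H2A coding region were called higher. Hist1h2an (chr13:21902669-21902728) read 12.70, 12.65 and 12.54 with vehicle and 13.25, 13.18 and 13.29 with GSK-J4. The difference was 0.61 ± 0.08 at an adjusted p of 0.0160. That probe is placed on the plus strand and has listed transcripts of 4 RefSeq genes. In RefSeq, Hist1h2an is a gene of the minus strand, so the signal cannot be assigned to Hist1h2an alone. Hist1h2ak (chr13:21845304-21845363) read 13.58, 13.62 and 13.55 against 14.11, 14.02 and 14.11, a difference of 0.49 ± 0.07 (adjusted p 0.0174). In both, the groups stood further apart than any spread within them. Hist1h2af (chr13:23626113-23626172) went from 13.80, 13.80 and 13.75 to 14.36, 14.15 and 14.30, a difference of 0.49 ± 0.08. Hist1h2aa (chr13:24026659-24026718) went from 14.06, 13.95 and 13.92 to 14.39, 14.41 and 14.41, a difference of 0.43 ± 0.07. Both passed, at adjusted p-values of 0.0227 and 0.0226.

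Hist2h2ac (chr3:96024378-96024437) read 13.72, 13.60 and 13.51 with vehicle and 14.08, 13.98 and 14.04 with GSK-J4, a difference of 0.42 ± 0.08 (adjusted p 0.0299). Hist2h2aa2 (chr3:96043781-96043840) read 13.36, 13.76 and 13.80 against 14.27, 14.22 and 14.49, and Hist1h2ag, whose probe carries AATAAA, read 12.78, 12.80 and 12.39 against 13.40, 13.16 and 13.41. The differences of these were 0.69 ± 0.15 and 0.66 ± 0.14, at adjusted p-values of 0.0346 and 0.0352, and vehicle replicate 1 was the lowest value of Hist2h2aa2. Of this group, the Hist1h2an probe alone kept its call with the GC trend removed (0.35, adjusted p 0.0426).

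The remaining tested H2A probes with at least 20 bases shared with another member, Hist1h2ah and Hist1h2ao, were not called, and each had 1 low array. Hist1h2ah read 13.65, 13.90 and 14.04 with vehicle and 14.48, 14.52 and 12.14 with GSK-J4. Hist1h2ao read 12.47, 12.51 and 12.33 against 13.12, 12.91 and 10.73. In both, GSK-J4 replicates 1 and 2 were above all vehicle arrays and replicate 3 was below them. On that array, the pixels of the spots had a standard deviation of 35.0% and 36.4% of their mean, against 3.42 to 13.6% for these probes on the other arrays and a median of 7.85% for bright spots of the same array, and no flag marked them. Without GSK-J4 replicate 3, a setting chosen after these values were seen, the differences were 0.64 and 0.58 (adjusted p 0.0494 and 0.0416). The stem-loop probe of Hist1h1c, a linker histone, was also lowest on GSK-J4 replicate 3, with 7.66, 7.37 and 7.55 against 7.65, 7.82 and 6.16 and a pixel spread of 40.5% there, and of the other GSK-J4 arrays only replicate 2 was above all vehicle arrays.

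**Figure D4:**
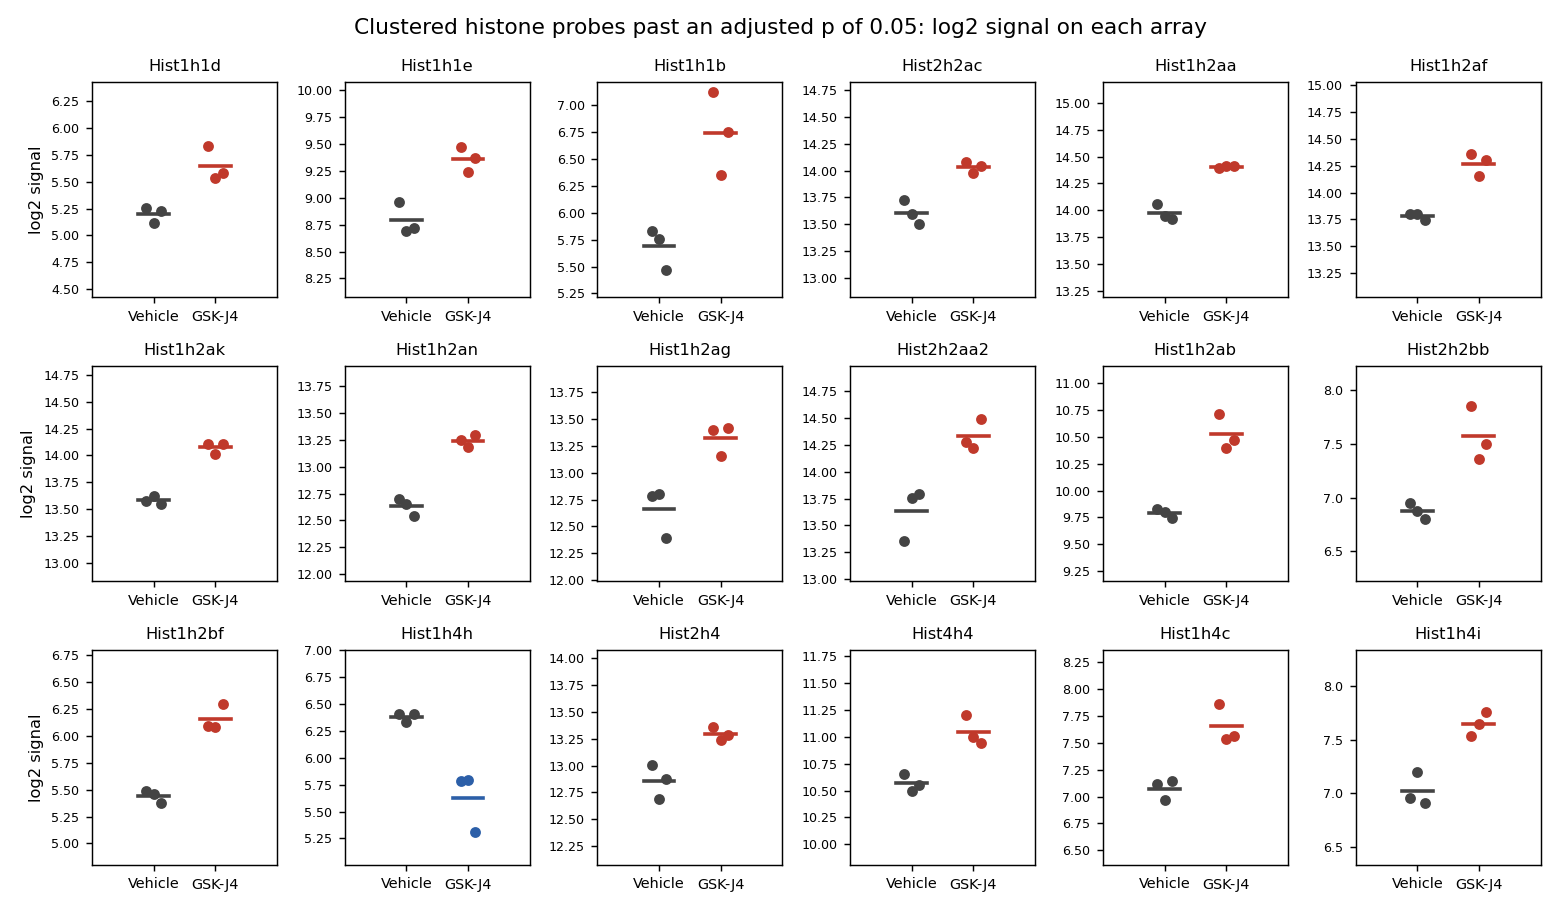
Log2 signal (vertical axis, 1 panel for each probe, all spanning the same range) on the 3 vehicle and 3 GSK-J4 arrays of the 18 clustered histone probes past an adjusted p of 0.05, with a line at each mean. The groups do not overlap in any panel, and in Hist1h4h the GSK-J4 values are the lower ones.

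The H2A probes with low sharing were divided. Hist3h2a, outside the large clusters, read 12.67, 12.62 and 12.75 with vehicle and 12.51, 12.80 and 12.82 with GSK-J4 on its downstream probe, where the groups overlapped. Its differences were 0.06 ± 0.11 on the coding probe and 0.03 ± 0.11 downstream. Hist1h2ac read 5.05, 5.61 and 5.35 against 5.76, 6.02 and 6.12, a difference of 0.63 ± 0.17 that missed the threshold (adjusted p 0.0575).

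In H2B, the partner of H2A, the probes called were those that carry the whole stem-loop. Hist1h2bf (chr13:23665629-23665688) read 5.49, 5.46 and 5.38 with vehicle and 6.09, 6.08 and 6.30 with GSK-J4. Hist2h2bb (chr3:96074056-96074115) read 6.95, 6.88 and 6.80 against 7.86, 7.36 and 7.50. The groups were apart in both. The differences were 0.72 ± 0.09 (a fold of 1.64, adjusted p 0.0156) and 0.69 ± 0.14 (1.62, adjusted p 0.0312), and Hist1h2bf kept its call with the GC trend removed (0.57, adjusted p 0.0253). Of the other probes with the whole stem-loop, Hist1h4m was tested and read 4.42, 3.87 and 4.16 against 5.93, 5.14 and 4.68, with an adjusted p of 0.0727. It was well above background on 2 vehicle and 3 GSK-J4 arrays and so entered the test only through the group where it was high, and nothing is read from its difference. Hist1h3a and Hist1h3i were detected on 1 array of each group and have no test. Hist1h3g, with the same stem around another loop, was well above background on 3 vehicle and 2 GSK-J4 arrays. It was tested and not called, at a difference of -0.01 ± 0.31 (adjusted p 0.981). Hist1h2bf and Hist2h2bb share a run of at least 20 bases that holds the stem-loop of 16 bases, so their calls are not independent. Of tested H2B probes, 2 of 3 with such a run shared with another member were called, and 0 of 11 without. Hist1h2bf also holds CCTAACC, a run found in 129 probes of the array. Of the 87 tested probes with that run that are no members, 28.7% were higher, beside 8.39% of all tested probes. For the shorter CCTAAC it was 14.9% of 315 such probes, and the Hist1h1c probe that holds it was not called. These runs were not part of the planned comparisons. Their shares were not set against probes of like GC content, so nothing is read from them.

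The remaining 12 H2B probes were not called, with differences from -0.58 to 0.21. Hist1h2bc, the H2B probe of the highest mean signal, read 13.58, 13.38 and 13.38 with vehicle and 13.14, 13.43 and 13.32 with GSK-J4, so the groups overlapped (difference -0.15 ± 0.11, adjusted p 0.365). Hist3h2ba differed by 0.07 ± 0.08 at the stem-loop and by -0.01 ± 0.08 at the poly(A) signal, and Hist2h2be by 0.21 ± 0.09 and 0.08 ± 0.15 on its probes. Hist1h2bq was at 6.00, 5.77 and 5.31 against 5.20, 5.18 and 4.97, all GSK-J4 values being lower, with a difference of -0.58 ± 0.19 and an adjusted p of 0.0859.

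No H3 probe was called. Hist1h3d, the H3 probe of the highest mean signal, for which the files list transcripts of 4 RefSeq genes, read 13.04, 12.93 and 12.94 with vehicle and 12.98, 13.10 and 13.10 with GSK-J4. The difference was 0.09 ± 0.08 (adjusted p 0.432), and the groups overlapped. Hist1h3c had the widest difference, 0.76 ± 0.30 (adjusted p 0.132), with 8.51, 8.39 and 7.39 against 8.85, 8.82 and 8.89, where vehicle replicate 3 stood below the other arrays. The Hist2h3c1 and Hist2h3c2 probes differed by -0.12 to 0.20.

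In H4, the most conserved core histone, calls went in both directions. The probes of Hist1h4h and Hist1h4i both cross the start codon and share 14 bases there. Stretches of 30 bases are printed with the start codon in capitals.
Hist1h4h: tcttcagcaagtacaccATGtctggtcgtg
Hist1h4i: ttcatcATGtctggtcgtggcaaaggagga
Hist1h4h (chr13:23622937-23622996) was the only member called lower, with 6.40, 6.33 and 6.41 on the vehicle arrays and 5.78, 5.79 and 5.31 on the GSK-J4 arrays. The difference was -0.75 ± 0.15, which is 1.69-fold lower, at an adjusted p of 0.0291, and was -0.98 (adjusted p 0.0270) with the GC trend removed. Hist1h4i (chr13:22133139-22133198) read 6.96, 7.20 and 6.91 against 7.53, 7.65 and 7.76, a difference of 0.62 ± 0.11 (adjusted p 0.0246). The groups were apart for both genes, in opposite directions.

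Other H4 probes rose. Hist1h4c (chr13:23790223-23790282) read 7.11, 6.96 and 7.14 with vehicle and 7.86, 7.53 and 7.57 with GSK-J4, a difference of 0.58 ± 0.12 (adjusted p 0.0301). Hist4h4 (chr6:136752717-136752776), which lies alone on chromosome 6, read 10.65, 10.50 and 10.55 against 11.20, 11.00 and 10.94, a difference of 0.48 ± 0.10 (adjusted p 0.0309). Hist2h4 (chr3:96066953-96067012) read 13.00, 12.69 and 12.88 against 13.36, 13.24 and 13.28, a difference of 0.44 ± 0.10 (adjusted p 0.0412). None of these and not Hist1h4i passed with the GC trend removed, at differences of 0.16 to 0.34. Hist1h4d, the H4 probe of the highest mean signal, has 10 spots and was at 14.54, 14.33 and 14.42 against 14.70, 14.60 and 14.59. Its difference of 0.20 ± 0.09 was not called (adjusted p 0.151) and was -0.04 with the GC trend removed. Both Hist1h4k probes had groups that did not overlap, at 0.36 ± 0.11 and 0.29 ± 0.10 (adjusted p 0.0733 and 0.0948).

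Among the H1 genes, whose products bind the linker DNA between nucleosomes, Hist1h1b had the largest difference of any member called. Its probe and that of Hist1h1e lie in the lysine-rich end of the coding region and are printed as they differ in sequence while both were called.
Hist1h1b: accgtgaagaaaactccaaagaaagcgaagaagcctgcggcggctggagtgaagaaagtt
Hist1h1e: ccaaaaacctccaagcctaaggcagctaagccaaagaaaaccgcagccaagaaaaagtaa
Hist1h1b (chr13:21871923-21871982) read 5.83, 5.76 and 5.47 with vehicle and 7.12, 6.35 and 6.76 with GSK-J4. All GSK-J4 values were above the vehicle values, and they spread more widely (SD 0.39, n = 3) than the vehicle values (SD 0.19, n = 3). The difference was 1.05 ± 0.22, a fold of 2.08, at an adjusted p of 0.0313, and 0.83 (adjusted p 0.0590) with the GC trend removed. Hist1h1e (chr13:23713707-23713766) read 8.96, 8.69 and 8.72 against 9.47, 9.24 and 9.37, a difference of 0.57 ± 0.11 (adjusted p 0.0272) that kept its call with the trend removed (0.51, adjusted p 0.0418). Hist1h1d (chr13:23647452-23647511) read 5.25, 5.12 and 5.23 against 5.83, 5.54 and 5.58, a difference of 0.45 ± 0.10 (adjusted p 0.0411). Hist1h1c, the linker histone probe of the highest mean signal, was at 10.72, 10.36 and 10.39 against 10.27, 10.71 and 10.48, where the groups overlapped (adjusted p 0.987), and Hist1h1a and Hist1h1t were not detected.

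Many H2A and H2B genes lie head to head and share the DNA between their starts. Of 56 members, 49 had a promoter entry in RefSeq (50 entries), and 6 pairs of opposite strand had starts within 500 bases. In 3 pairs, genes of both sides were tested. For Hist1h2ak and Hist1h2bn the differences were 0.49 (called) and 0.11 (adjusted p 0.466), for Hist1h2aa and Hist1h2ba 0.43 (called) and 0.03 (adjusted p 0.943), and for Hist1h2ao and Hist1h2bq -0.19 (adjusted p 0.855) and -0.58 (adjusted p 0.0859). The Hist1h2ao value includes its low GSK-J4 replicate 3. The files place the Hist1h2bq probe on the plus strand (chr13:21929140-21929199, mm9) and list transcripts of 2 RefSeq genes for it. In this pair Hist1h2bq is the gene of the minus strand, so the signal of that probe cannot be assigned to it. The sequences between the starts of the first and last of these pairs are printed from RefSeq (GRCm38.p6), 5′ to 3′ on the plus strand as examples of intervals that lie whole within a promoter entry, which the interval of Hist1h2aa and Hist1h2ba does not. Capitals mark CCAAT on either strand, the box bound by NF-Y.
Hist1h2ak and Hist1h2bn, chr13:21753913-21754075: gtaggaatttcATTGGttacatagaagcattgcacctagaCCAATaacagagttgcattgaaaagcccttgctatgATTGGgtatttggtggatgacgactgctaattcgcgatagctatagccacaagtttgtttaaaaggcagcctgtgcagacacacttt
Hist1h2bq and Hist1h2ao, chr13:21810200-21810366: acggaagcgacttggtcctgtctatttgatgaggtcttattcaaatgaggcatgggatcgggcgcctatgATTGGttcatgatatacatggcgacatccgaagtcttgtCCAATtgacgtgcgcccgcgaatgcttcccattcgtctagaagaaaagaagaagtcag
The box occurred 3 times in the former and 2 times in the latter. The probe signals of these H2A genes carry the sharing described above.

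Motifs were counted in windows of 300 bases, 250 before the start and 50 after, on both strands. CCAAT was in 44 of 50 member promoters (88.0%) and 37.4% of 32851 promoters, including 17 of 17 for H2A and 2 of 8 for H4. TATAAA was in 29 (58.0%), against 13.6%. The octamer ATTTGCAT, which Oct-1 binds, was in 13 (26.0%), against 1.74%, and only in H2A (7 of 17) and H2B (6 of 12) promoters among the members. No motif searched contains another. With 1 tested probe for each gene, 4 of 12 genes with the octamer and 12 of 28 without it were higher. These matches describe letters and no binding.

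The genes that process histone mRNA, carry the proteins or act in S phase were read from lists of 1 probe for each gene. Their counts stand beside the 8.39% higher and 8.42% lower of all tested probes. Of 28 processing and chaperone genes, all tested, 4 were higher and 0 lower, with a median difference of 0.11. Chaf1b and Chaf1a, subunits of the factor that places new H3 and H4 behind replication forks, rose by 0.54 ± 0.08 and 0.47 ± 0.08 (adjusted p 0.0207 and 0.0240). Lsm10, a subunit of the U7 particle, rose by 0.27 ± 0.06, and Snrpg by 0.29 ± 0.07. The probes of Chaf1b, Chaf1a, Lsm10 and Snrpg had a GC content of 55, 50, 45 and 55%. No list gene was read with the GC trend removed. Of 26 S phase and cell cycle genes, 23 were tested, 1 was higher (Rrm2, a ribonucleotide reductase subunit, 0.32 ± 0.08) and 1 lower (Pcna, the sliding clamp of DNA polymerase, -0.28 ± 0.07), with a median of 0.17. Both Rrm2 and Pcna lay near the threshold (adjusted p 0.0499 and 0.0486). Of 11 genes for replication-independent variants, whose mRNAs are mostly polyadenylated, H2afx (0.27 ± 0.07) and H2afj (0.38 ± 0.07) were higher and H1f0 (-0.44 ± 0.11) lower, with a median of 0.01. H2afz, H3f3a and H3f3b differed by -0.02, -0.13 and -0.11, and none was called.

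Marker lists were read for the cells the tissue could hold. Of 6 markers of cycling cells, 4 were tested and 0 called, and all 4 had positive differences, of 0.14 to 0.47 (median 0.27). Top2a read 5.61, 5.51 and 5.48 with vehicle and 5.72, 5.72 and 5.91 with GSK-J4 (adjusted p 0.0991). Ccnb1 read 4.47, 4.47 and 4.30 against 4.77, 4.74 and 5.13 (adjusted p 0.0608). In both the groups did not overlap, while those of Mki67 and Birc5 did. Cdk1 was detected on 1 array and Aurkb on 0, and the mean over all 6 was 4.86 to 5.13 with vehicle and 4.99 to 5.05 with GSK-J4. Of 10 hypothalamic neuron markers, 7 were tested and 2 were higher, Npy by 0.42 ± 0.08 and Pomc by 0.85 ± 0.14. One of 5 markers of oligodendrocyte precursors, Cspg4, was higher, and 0 of 4 were called for microglia and for haemoglobin. Among the microglia markers, the groups of Aif1 and Cx3cr1 did not overlap, at differences of 0.58 and 0.30 (adjusted p 0.0589 and 0.0640). Tmem119 and Csf1r were above all vehicle arrays on GSK-J4 replicates 1 and 2 and below them on replicate 3, at differences of 0.03 and -0.35. The 6 choroid plexus markers averaged 12.9 on vehicle replicate 1, against 7.78 to 9.11 on the GSK-J4 arrays, and Ttr read 16.15 there against 10.66 and 10.85 on the other vehicle arrays. Pituitary hormones were detected on 0 arrays for 4 of 6 genes. The part of these cells in the histone values was not tested and the count of members called without vehicle replicate 1 is given above.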

How the data were processed

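Labelled RNA of 6 mice was hybridised to Agilent SurePrint G3 mouse arrays. The authors extracted spot intensities with Feature Extraction 10.7.1.1 and deposited these intensities with detection flags. The log2 values used here are those of the deposited series table, which the authors quantile normalized in GeneSpring. Its 6 columns, once sorted, lie within 0.00424 of each other, and each was assigned to a sample by name, with 0 left over. Each deposited flag (gIsWellAboveBG, a score of 0 or 1) tells whether a spot was well above background.

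Groups were taken from the labels, with 3 arrays each, and the small number of arrays limits the precision. The log2 values were compared with limma 3.58.1 in R 4.3.3 (lmFit and eBayes, two-sided, no covariate) over the 34443 probes that were flagged so on each of the 3 arrays in 1 group or both, with Benjamini-Hochberg adjustment over the whole of them. A difference is GSK-J4 minus vehicle, and a fold is 2 to the power of it. Fits were tested on simulated data. The members, the gene lists and the tests were chosen with earlier results of these data known, so no test of a list was made. Named were every member probe past an adjusted p of 0.05, the probe with the highest mean in each class, the other probes of genes with 1 passing probe and the germ cell members; Hist1h2ah, Hist1h2ao, the first Hist1h1c probe, Hist1h2ac, Hist1h2bq, Hist1h3c, Hist1h4m and Hist1h4k and the genes of divergent pairs were named after their values were seen. List genes were read from their probe of highest mean signal. Probe coordinates are those of the files (mm9). Stem-loops, runs of at least 20 shared bases and motifs were found by exact match. Alternatives covered the normalization, the background, the filter, the variance model, the probe GC content, the replicate number and each array left out.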

Additional observations from a re-analysis of the deposited data

How the results depend on the processing

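The 18 member probes called kept their direction under all 18 alternatives run, and what changed was the side of the threshold. The count of 17 higher and 1 lower went to 10 and 0 with no filter on dim probes and to 4 higher with the GC trend removed. It went to 0 and 0 with the t-test of the methods after adjustment (9 higher and 1 lower at its thresholds). Over all probes, 2889 higher and 2899 lower went to 1793 and 1972 of 56605 with no filter and to 1552 and 2048 with the GC trend removed. With the adjusted t-test they went to 56 and 37 (1139 and 1799 at its thresholds). The 75th percentile scaling gave 21 higher and 2 lower, beside 5039 and 3652 of all probes. Leaving out 1 array gave 0 to 12 higher and 0 to 1 lower, beside 1 to 2075 and 4 to 2481 of all probes. Replicate numbers were not taken to pair the mice, since deviations of same-numbered arrays from their group means correlated at 0.007 to 0.081. With the replicate block 0 and 0 members, and 0 of all probes, passed. The fold and unadjusted p of the methods (11 higher, 1 lower) gave 3 and 0 with normexp, 3 higher with the GC trend removed, 2 lower with the 75th percentile scaling, and 8 to 12 higher and 1 to 2 lower without 1 array. The median difference of 0.20 moved to 0.32 with the 75th percentile scaling, 0.14 with the GC trend removed, 0.28 with 1 probe per gene, and 0.19 to 0.28 without 1 array. Among probes that were not called, the difference turned sign for Hist1h1c (0.076 with the 75th percentile scaling, 0.12 with array weights, 0.17 with the GC trend removed, and from -0.12 to 0.11 without 1 array), Hist1h2bc (0.11 with the 75th percentile scaling, 0.028 with the GC trend removed), Hist1h3d (-0.17) and Hist1h4d (-0.039), the last 2 with the GC trend removed, and for Hist1h2ah (0.64) and Hist1h2ao (0.58) without GSK-J4 replicate 3. The cause of these changes was not tested. With fewer arrays the fit has fewer samples, and over all probes 1 to 2 were higher without a vehicle array.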
